A study of Mus musculus with 12 samples.

Results

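The 33 genes described here encode the chaperones and the quality-control machinery of the endoplasmic reticulum (ER), together with sensors and transcription factors of its stress response. They were chosen by function, as sensors of the unfolded protein response, ER chaperones, foldases and components of ER-associated degradation, and probes were assigned to them through RefSeq accessions. All 33 were among the 20656 genes named on the array, and all 33 were among the 15441 that passed the filter on dim probes and were tested. Derl3 passed that filter only through the mutant groups, in which it was brighter, so the counts below are also given without it where it was called.

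RNA was measured on 12 Agilent single-colour arrays in cultures of mouse embryonic fibroblasts (MEFs), the spindle-shaped cells of embryonic connective tissue, with 3 arrays from independent experiments in each of 4 groups. The groups were GADD34ΔC/ΔC cells (ΔC below) lipofected with 2.5 µg/ml of long-chain (high molecular weight) poly(I:C) and harvested after 6 h, untreated ΔC cells, wild-type (WT) cells given the same poly(I:C), and untreated WT cells. GADD34, the product of Ppp1r15a, recruits a phosphatase that removes the stress phosphate from eIF2α, and poly(I:C) is a double-stranded RNA made in the laboratory that stands in for RNA of a virus. All groups were grown in serum-containing medium with beta-mercaptoethanol, a reducing agent, the labels list no lipid-only group, and they do not say how many embryos or lines stand behind each genotype.

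The ER folds secreted and membrane proteins. Hspa5 (BiP) and other chaperones bind unfolded chains, disulfide isomerases form and rearrange their cysteine bonds, the lectins calreticulin and calnexin hold glycoproteins, and chains that fail to fold are sent back to the cytosol and degraded. When unfolded protein accumulates, the sensors IRE1α (Ern1), ATF6 and PERK respond: IRE1α splices Xbp1 mRNA, ATF6 is cut to release a transcription factor, and PERK phosphorylates eIF2α, which GADD34 reverses. Spliced XBP1 and cleaved ATF6 act on ER stress response elements in the promoters of chaperone and degradation genes, while double-stranded RNA reaches eIF2α through another kinase, PKR.

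The promoters of 5 members are shown: 4 of the members called in a comparison (Herpud1, Dnajb9, Sdf2l1, Derl3) beside Hspa5, the standard reporter of this pathway. Each is the 250 bases before the RefSeq transcript start in mouse build GRCm38.p6, 5′ to 3′ on the gene's strand, and capitals mark the ER stress response element (ERSE, CCAAT and CCACG with any 9 bases between them) or its shorter form ERSE-II (ATTGG and CCACG with any base between them), on either strand. Herpud1 lies at chr8:94386179-94386428 (+), Hspa5 at chr2:34771840-34772089 (+), Derl3 at chr10:75893148-75893397 (+), Dnajb9 at chr12:44210069-44210318 (-) and Sdf2l1 at chr16:17132384-17132633 (-), and no element was found in the windows of Dnajb9 and Sdf2l1.
Herpud1: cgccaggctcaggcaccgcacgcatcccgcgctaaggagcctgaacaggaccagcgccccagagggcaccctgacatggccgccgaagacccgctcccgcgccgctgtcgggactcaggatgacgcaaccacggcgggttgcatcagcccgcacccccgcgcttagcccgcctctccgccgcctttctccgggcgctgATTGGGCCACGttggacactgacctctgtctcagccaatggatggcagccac
Hspa5: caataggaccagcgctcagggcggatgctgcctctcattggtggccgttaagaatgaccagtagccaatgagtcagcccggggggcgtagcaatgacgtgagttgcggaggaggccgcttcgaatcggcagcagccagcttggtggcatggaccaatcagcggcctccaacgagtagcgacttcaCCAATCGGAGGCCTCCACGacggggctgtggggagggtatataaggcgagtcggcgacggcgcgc
Derl3: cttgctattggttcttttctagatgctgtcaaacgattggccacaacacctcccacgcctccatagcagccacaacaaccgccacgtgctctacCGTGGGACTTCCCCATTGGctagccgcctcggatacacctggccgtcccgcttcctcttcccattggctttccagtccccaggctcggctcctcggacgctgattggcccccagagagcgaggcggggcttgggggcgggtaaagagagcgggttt
Dnajb9: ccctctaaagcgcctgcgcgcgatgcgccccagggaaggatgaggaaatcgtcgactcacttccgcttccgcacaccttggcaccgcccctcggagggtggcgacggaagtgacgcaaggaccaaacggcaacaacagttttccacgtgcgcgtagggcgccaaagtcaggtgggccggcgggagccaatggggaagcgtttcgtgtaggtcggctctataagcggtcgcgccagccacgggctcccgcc
Sdf2l1: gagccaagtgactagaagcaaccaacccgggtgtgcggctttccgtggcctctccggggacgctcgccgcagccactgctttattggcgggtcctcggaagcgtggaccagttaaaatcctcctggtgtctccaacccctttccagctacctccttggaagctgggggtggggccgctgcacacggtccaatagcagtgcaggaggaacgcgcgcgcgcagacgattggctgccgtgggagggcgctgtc

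RefSeq promoters were matched for 25 of the 33 members. An ERSE was found in 9 of the 25 (36%), namely Hspa5, Hsp90b1, Calr, Canx, Pdia6, Dnajc3, Creld2, Syvn1 and Derl3. Among all 27025 genes with a promoter it was found in 35 (0.130%), in windows of the same length. Hsp90b1 held 2 copies, and the others 1 each. Herpud1 alone among the 25 held an ERSE-II, 52 to 42 bases before the start, a sequence found in 10 of all genes with a promoter (0.0370%). Its window also ends with CCAAT, 9 bases and CCAC. An ERSE that crosses the start would not have been counted, since bases past the start were not searched. The core of the XBP1 site TGACGTGG was found in 0 of the 25 and in 0.603% of all genes with a promoter. No ERSE overlapped an ERSE-II in these windows. The matches describe these letters in these windows and nothing about what binds there.

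On each array 60.4 to 67.3% of probes were well above background. The first principal component, with 55.5% of the variance of all genes, parted the genotypes, the second (22.0%) parted treated from untreated cells, and the third (8.52%) parted the arrays numbered 3 from the rest. Levels here are log2 signals relative to the 75th percentile of the array, in the order of replicate numbers 1, 2 and 3, and a gene is said to rise or fall only where limma's p, adjusted over all 15441 genes, was under 0.05. Ppp1r15a itself had levels of -4.12, -8.14 and -7.20 in ΔC cells after poly(I:C) and -7.22, -8.30 and -5.75 in untreated ΔC cells, against 5.79, 5.83 and 5.81 in WT cells after poly(I:C) and 2.65, 2.62 and 3.36 in untreated WT cells. Its signal was at least 486-fold lower in untreated ΔC cells than in untreated WT cells (limma adjusted p = 6.15e-05), and where its probe lies relative to the deletion is not given.

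Few genes of the ER folding machinery passed the test for a response to poly(I:C). In ΔC cells 1 of the 33 genes passed the test: Herpud1, a membrane protein of the HRD1 degradation complex, rose 2.20-fold. In WT cells 1 passed as well: Sdf2l1, a resident partner of BiP, fell by 0.52 on the log2 scale. Among all genes 1.84% passed in ΔC cells (1.82% rose and 0.0194% fell) and 6.77% in WT cells (5.24% rose and 1.53% fell), so 1 of 33 (3.03%) stood near the background in ΔC cells and below it in WT cells. The 95% confidence interval of the log2 change lay wholly between -1 and 1 for 30 of the 33 genes in ΔC cells and for 29 in WT cells.

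**Figure D1:**
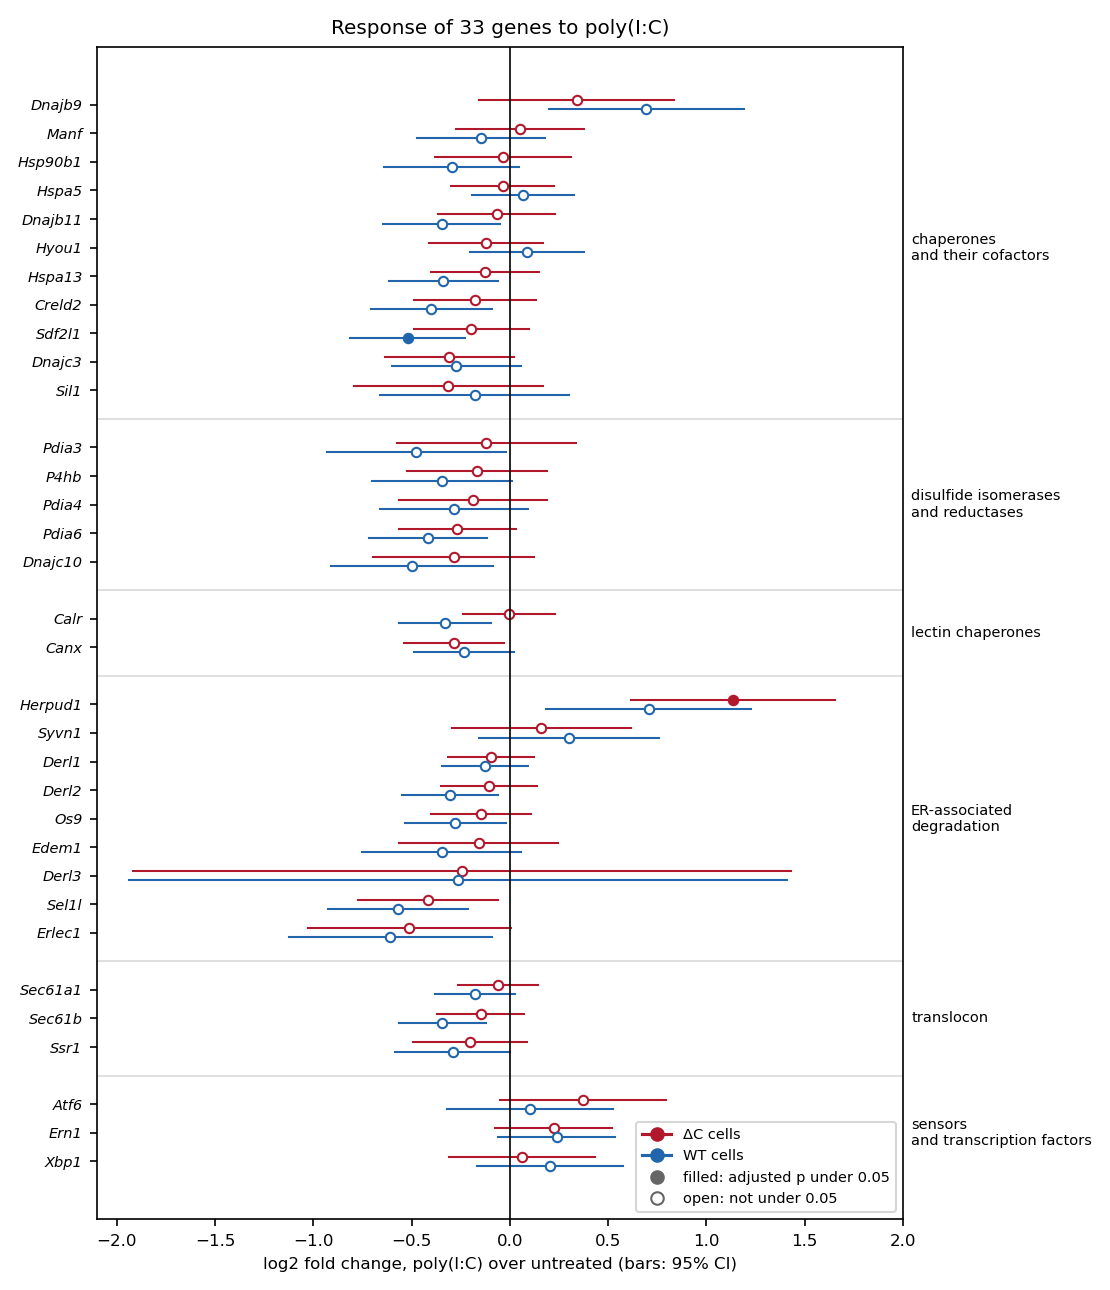
Log2 fold change of the 33 genes after poly(I:C) over untreated cells, by role, with 95% confidence intervals from limma; ΔC cells are red and WT cells blue, and filled points passed the test. Herpud1 in ΔC cells (1.13) and Sdf2l1 in WT cells (-0.52) are the only filled points, and most open points lie left of 0.

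Below the threshold the values leaned downwards. In ΔC cells 7 genes were above 0 and 26 below, with a median log2 change of -0.13 against -0.05 for all genes. In WT cells 8 were above 0 and 25 below, with a median of -0.28 against -0.14 for all genes. The treated and untreated arrays of WT cells did not overlap for 17 members that were lower (51.5%, against 18.6% of all genes) and 3 that were higher (9.09%, against 12%). In ΔC cells they did not overlap for 9 that were lower (27.3%, against 8.91% of all genes) and 3 that were higher (9.09%, against 8.78%). An unadjusted p under 0.05 was reached by 3 of 33 members in ΔC cells, against 10.9% of all genes, and by 15 of 33 in WT cells, against 26.2%. When each array was scaled to its median instead, the median of all genes moved by -0.14 in the ΔC response and by 0.07 in the WT response, a constant that leaves the members' place among all genes as it was (-0.08 and -0.14 relative to the median of all genes). With quantile normalization the members' median minus that of all genes was -0.06 in ΔC cells and -0.14 in WT cells.

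The sensors and the transcription factor of the pathway were the only role in which all 3 members had positive values in both genotypes, and none passed the test. Ern1, the gene for IRE1α, had levels of -0.37, -0.38 and -0.44 after poly(I:C) and -0.58, -0.62 and -0.66 untreated in ΔC cells, against -0.19, -0.27 and -0.62 and -0.45, -0.78 and -0.57 in WT cells. The treated ΔC arrays lay above the untreated ones, while the WT arrays overlapped, and the log2 changes were 0.22 (95% interval -0.07 to 0.52) in ΔC cells and 0.24 (-0.06 to 0.54) in WT cells. Atf6 had levels of -0.31, -0.23 and -0.57 after poly(I:C) and -0.68, -0.81 and -0.74 untreated in ΔC cells, against -0.73, -0.84 and -0.55 and -1.0, -1.09 and -0.34 in WT cells. Again the ΔC arrays did not overlap and the WT arrays did, with changes of 0.37 (-0.05 to 0.80) and 0.10 (-0.32 to 0.53). Xbp1, whose mRNA is the substrate of IRE1α, had levels of 4.19, 4.29 and 4.20 after poly(I:C) and 4.11, 4.25 and 4.15 untreated in ΔC cells, against 4.74, 4.58 and 4.23 and 4.62, 4.27 and 4.04 in WT cells. Its arrays overlapped in both genotypes, with changes of 0.06 (-0.31 to 0.43) and 0.21 (-0.17 to 0.58), and the splicing of its mRNA was not measured.

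Among the 11 chaperones and cofactors, Hspa5 had levels of 6.71, 6.81 and 6.53 after poly(I:C) and 6.71, 6.74 and 6.71 untreated in ΔC cells, against 7.01, 6.82 and 6.86 and 6.66, 6.89 and 6.94 in WT cells. The treated and untreated arrays overlapped in both genotypes, and the log2 changes were -0.04 (95% interval -0.30 to 0.22, adjusted p = 0.935) and 0.07 (-0.19 to 0.33, adjusted p = 0.738). Hsp90b1 (GRP94), the HSP90 of the ER, had levels of 6.18, 6.26 and 6.45 after poly(I:C) and 6.44, 6.26 and 6.31 untreated in ΔC cells, against 6.36, 6.23 and 6.38 and 6.28, 6.71 and 6.88 in WT cells. Its changes were -0.03 and -0.30, and its arrays overlapped in both genotypes.

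Dnajb9 (ERdj4), a J-domain cochaperone that brings BiP to IRE1α and is induced through XBP1, had levels of -0.60, -0.91 and -0.46 after poly(I:C) and -1.18, -1.15 and -0.66 untreated in ΔC cells. In WT cells its levels were 0.58, 0.69 and -0.07 after poly(I:C) and -0.44, -0.21 and -0.22 untreated. The treated WT arrays lay above the untreated ones, and the treated ΔC arrays overlapped with the untreated ones. The log2 changes were 0.34 ± 0.22 (SE) in ΔC cells and 0.69 ± 0.22 in WT cells, neither of which passed (adjusted p = 0.626 and 0.0881). Paired by replicate number, the WT differences were 1.02, 0.91 and 0.15, so that the third experiment gave the smallest. A further Dnajb9 probe had the larger change in ΔC cells, at 0.81 against 0.53 in WT cells, and neither was called among the probes tested. Which genotype had the larger response therefore depends on the probe.

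Sdf2l1 had levels of 1.69, 1.81 and 1.86 after poly(I:C) and 1.85, 2.12 and 1.97 untreated in ΔC cells, against 1.21, 1.40 and 1.64 and 1.99, 1.98 and 1.84 in WT cells. All treated WT arrays lay below all untreated ones, and the ΔC arrays overlapped. The log2 change was -0.20 ± 0.13 (SE) in ΔC cells (adjusted p = 0.636) and -0.52 ± 0.13 in WT cells (adjusted p = 0.0439). The WT call was kept without WT array 3 of either treatment and lost without any of the other 10 arrays (adjusted p from 0.0137 to 0.195). Within a slide and within a scan day that held both WT groups, the WT difference was -0.57 and -0.67.

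The small secreted and luminal stress proteins did not pass in either genotype. Manf, a neurotrophic factor that is retained in the ER, had levels of 4.16, 4.47 and 4.12 after poly(I:C) and 4.08, 4.15 and 4.35 untreated in ΔC cells, against 3.95, 3.85 and 4.23 and 4.25, 4.00 and 4.22 in WT cells. Creld2, a luminal protein of the ER stress response, had levels of 5.16, 5.17 and 5.59 after poly(I:C) and 5.40, 5.49 and 5.56 untreated in ΔC cells, against 5.54, 5.37 and 5.57 and 6.05, 5.84 and 5.79 in WT cells. The Manf arrays overlapped throughout (0.05 in ΔC and -0.15 in WT cells), and for Creld2 the WT arrays were lower after poly(I:C) with no overlap (-0.40, adjusted p = 0.107) and the ΔC arrays overlapped (-0.18). The other 5 chaperones and cofactors, Hspa13, Hyou1 (GRP170), Sil1, Dnajb11 (ERdj3) and Dnajc3 (p58IPK), ranged from -0.31 to -0.07 in ΔC cells and from -0.35 to 0.09 in WT cells.

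All 5 disulfide isomerases and reductases had values below 0 in both genotypes, from -0.29 to -0.12 in ΔC cells and from -0.50 to -0.28 in WT cells, with 0 of 5 called. Pdia4 (ERp72) had levels of 1.10, 1.40 and 1.29 after poly(I:C) and 1.39, 1.71 and 1.25 untreated in ΔC cells, against 0.80, 0.87 and 0.81 and 0.91, 1.44 and 0.97 in WT cells. The ΔC arrays overlapped and the WT arrays were lower after poly(I:C) with no overlap (-0.28, adjusted p = 0.308). The lectin chaperone Calr was at -0.0050 in ΔC cells and -0.33 in WT cells, and Canx was at -0.28 and -0.23. The translocon genes Sec61a1, Sec61b and Ssr1, which encode the channel and its partner for entering chains, lay between -0.20 and -0.06 in ΔC cells and between -0.34 and -0.18 in WT cells, with 0 of 3 called.

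ER-associated degradation held the largest single response. Herpud1 had levels of 4.11, 4.43 and 3.93 after poly(I:C) and 2.62, 2.94 and 3.50 untreated in ΔC cells, against 4.42, 4.44 and 3.94 and 3.73, 3.51 and 3.44 in WT cells. In both genotypes every treated array lay above every untreated one. The log2 change was 1.13 ± 0.23 (SE) in ΔC cells (adjusted p = 0.0379) and 0.71 ± 0.23 in WT cells (adjusted p = 0.0958, unadjusted 0.013), and the difference between them, 0.43 (95% interval -0.31 to 1.16, adjusted p = 0.987), did not pass. Paired by replicate number, the differences were 1.48, 1.49 and 0.43 in ΔC cells and 0.70, 0.93 and 0.49 in WT cells. Blocking on the replicate number put the adjusted p in ΔC cells at 0.0727, so that the call was lost and 0 members were called there. The call was kept without array 3 of ΔC treated, ΔC untreated or WT treated cells and lost without any of the other 9 arrays (adjusted p from 0.0101 to 0.165). The difference in ΔC cells was 1.48 within a slide and 1.33 within a scan day, each of 2 or 3 arrays.

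**Figure D2:**
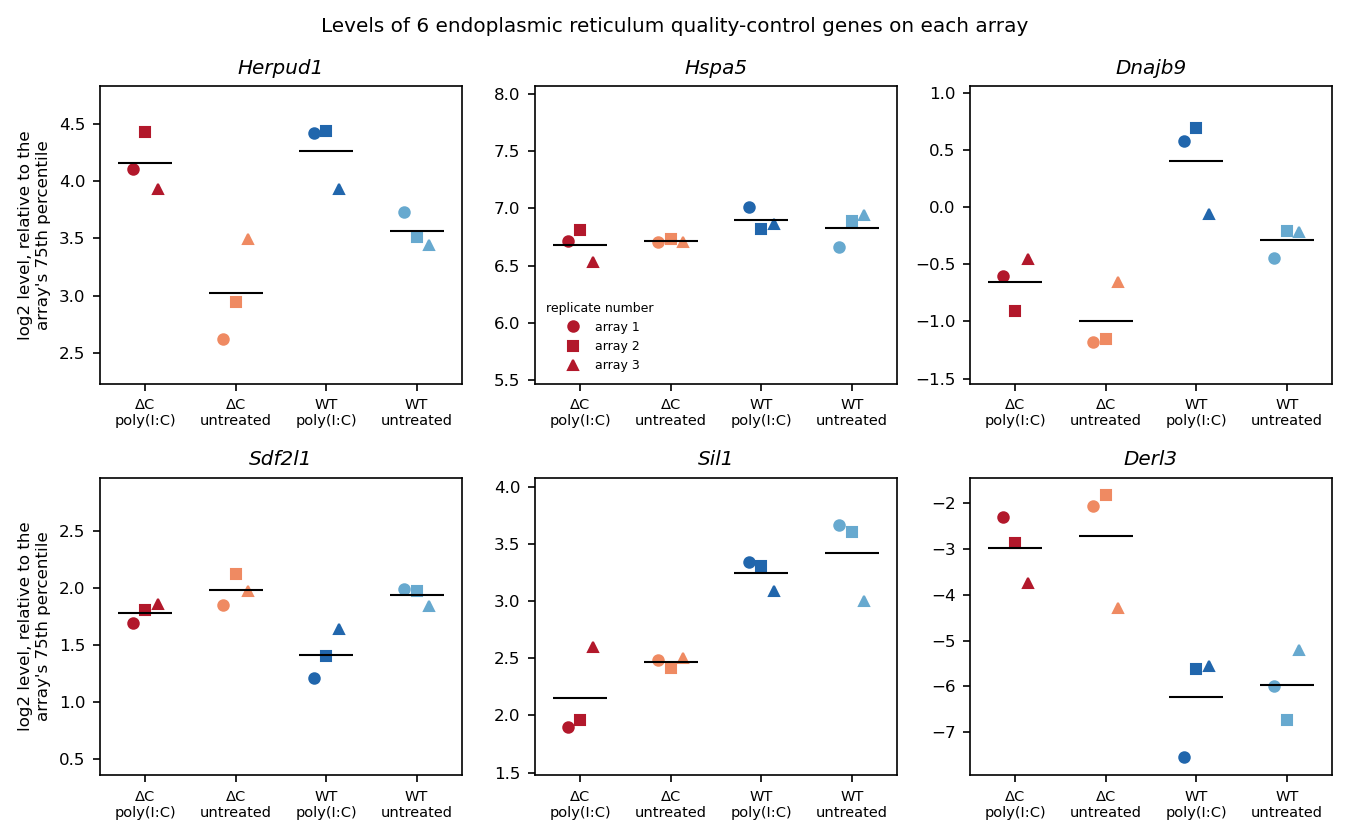
Log2 level of 6 genes on each of the 12 arrays, relative to the array's 75th percentile, with symbols for the replicate number and bars for group means (each panel has its own axis). Herpud1 lies higher after poly(I:C) in both genotypes, Sil1 and Dnajb9 lie lower in ΔC cells, and Derl3 lies higher in ΔC cells.

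No other degradation gene passed the test. Sel1l, the adaptor of the HRD1 ligase, had levels of -0.13, -0.21 and -0.06 after poly(I:C) and 0.28, 0.26 and 0.32 untreated in ΔC cells, against 0.16, -0.0038 and 0.31 and 0.98, 0.84 and 0.35 in WT cells. Its treated arrays were lower with no overlap in both genotypes, and neither change passed (-0.42, adjusted p = 0.388, and -0.57, adjusted p = 0.0618). Edem1, a mannosidase-like protein that passes misfolded glycoproteins on, had levels of 1.84, 1.86 and 1.27 after poly(I:C) and 1.91, 1.83 and 1.70 untreated in ΔC cells, against 1.10, 1.08 and 1.27 and 1.80, 1.33 and 1.36 in WT cells. The ΔC arrays overlapped, the WT arrays were lower with no overlap, and the changes were -0.16 and -0.35 (adjusted p = 0.253 in WT cells). Syvn1, the HRD1 ligase itself, was at 0.16 and 0.30, and Derl1, Derl2, Derl3, Os9 and Erlec1 lay between -0.51 and -0.10 in ΔC cells and between -0.61 and -0.13 in WT cells.

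The 10 members with an ERSE or ERSE-II had a median log2 change of -0.11 in ΔC cells and -0.27 in WT cells, and the 15 whose promoters held neither had -0.15 and -0.34. Herpud1, with the ERSE-II printed above, was the highest of the 10 in both genotypes, and Hspa5, with an ERSE 65 to 47 bases before its start, was near 0. Dnajb9 had the highest value of the 15 without an element in both genotypes (0.34 and 0.69).

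**Figure D3:**
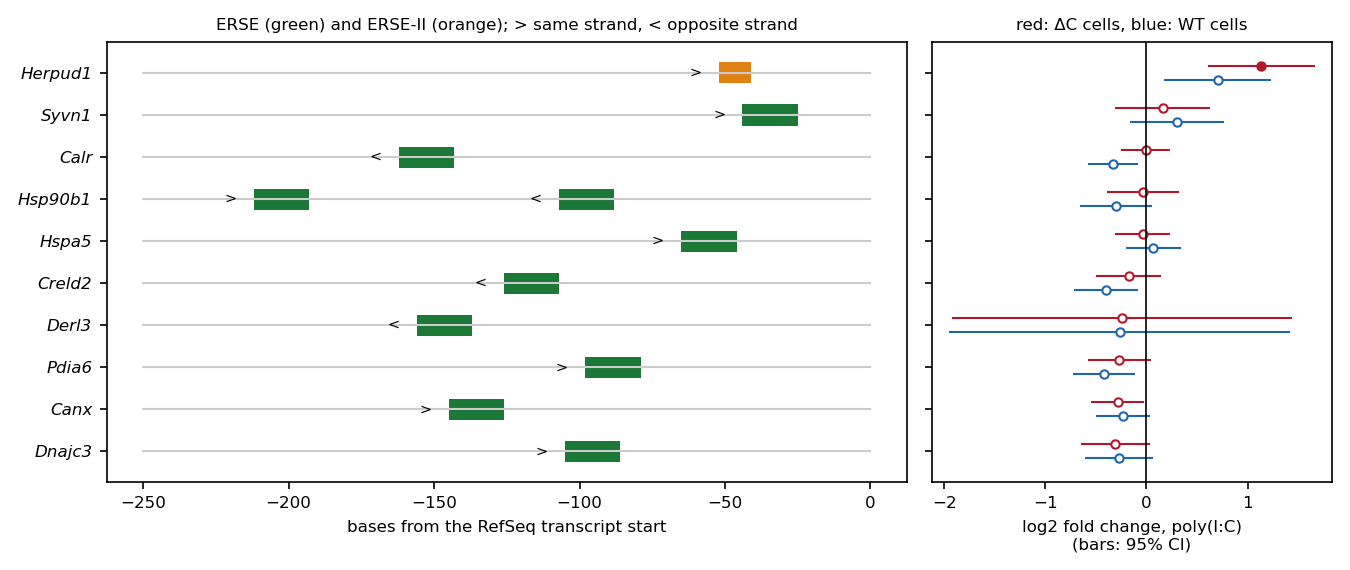
Left, position of ERSE (green) and ERSE-II (orange) matches in the 250 bases before the start of 10 genes, with the strand marked; right, their log2 change after poly(I:C) with 95% intervals in ΔC (red) and WT (blue) cells. Herpud1 carries the orange match and the highest value, and the 9 genes with green matches lie between -0.42 and 0.30.

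In the 2 responses 30 of the 33 members (90.9%) had the same sign, against 72.9% of all genes. The responses share no arrays, but they share replicate numbers, slides and scan days, so they are not independent. The difference between the responses, ΔC minus WT, was called for 0 of 33 members by limma, and 0 reached an unadjusted p under 0.05; among all genes 0.0194% were called. It ranged from -0.35 for Dnajb9 to 0.43 for Herpud1, with 24 members above 0 and a median of 0.15, against 0.07 for all genes. The further Dnajb9 probe had the opposite sign, at 0.28. With scaling to the median the median of all genes moved by -0.21, and the members' median turned to -0.06, so that its sign depends on the scaling.

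How many members passed moved with the third experiment. Without the 4 arrays numbered 3, an alternative added after the data were seen, 16 members were called in WT cells (3 rose and 13 fell, against 34.1% of all genes called) and 5 in ΔC cells (2 rose and 3 fell, against 13.1%). Leaving out single arrays gave 6 calls in WT cells without untreated WT array 3, 4 without treated WT array 3, and 0 without any other array. Over all genes 2232 were called without untreated WT array 3, 2081 without treated WT array 3 and 374 to 1130 without any other. The main fit called 1046.

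Between the genotypes the test called members in both directions. In untreated cells Sil1, Dnajb9, Pdia6, Dnajb11, Derl2, Calr and Sec61b were lower in ΔC cells and Derl3 was higher, so that 8 of 33 (24.2%) were called, against 21.1% of all genes (10.9% rose and 10.2% fell). After poly(I:C) Sil1 and Dnajb9 were lower and Derl3 higher, 3 of 33 (9.09%) against 20.9% of all genes (11.9% rose and 9.04% fell). Without Derl3, 7 of 32 (21.9%) fell untreated, against 10.2% of all genes, and 2 of 32 (6.25%) after poly(I:C), against 9.04%. The arrays of the genotypes did not overlap for 8 members that were lower (24.2%, against 18.9% of all genes) and 4 that were higher (12.1%, against 21.7%) after poly(I:C), and for 14 that were lower (42.4%, against 19.6%) and 2 that were higher (6.06%, against 17.6%) untreated. Without Derl3, 8 of 32 were lower (25%) and 3 higher (9.38%) after poly(I:C). Untreated, 14 of 32 were lower (43.8%) and 1 higher (3.12%). The untreated count depends on the scaling: 0 members fell with scaling to the median and 2 with quantile normalization or normexp. Over all genes 1960 were called untreated with scaling to the median, 3100 with quantile normalization and 3125 with normexp, against 3263 in the main fit. The members' median was -0.12 after poly(I:C) and -0.25 untreated, against 0.01 and -0.06 for all genes, and with quantile normalization it was -0.04 and -0.06, against 0.03 for all genes in both conditions.

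**Figure D4:**
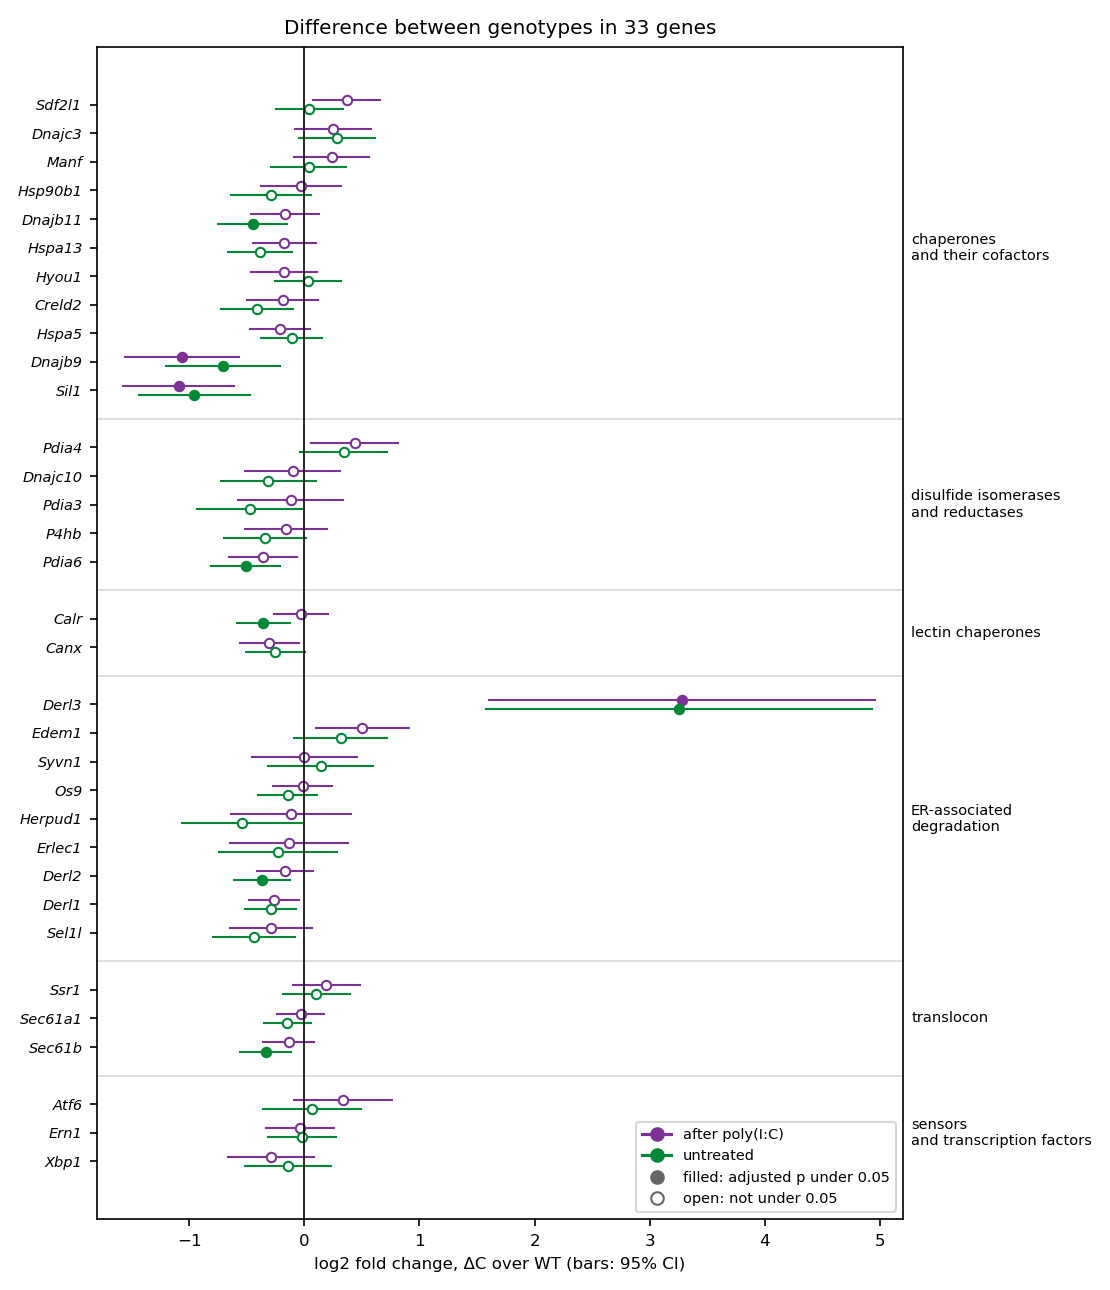
Log2 fold change of the 33 genes in ΔC over WT cells, by role, with 95% confidence intervals from limma; values after poly(I:C) are purple, values of untreated cells green, and filled points passed the test. Sil1 and Dnajb9 are filled to the left and Derl3 to the right in both conditions, and 5 more genes are filled in untreated cells.

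Sil1, which releases nucleotide from BiP and so lets it drop its client, showed the lowest value in both conditions. Its levels were 1.90, 1.96 and 2.60 in ΔC cells after poly(I:C), against 3.34, 3.30 and 3.09 in WT cells, and 2.49, 2.41 and 2.50 in untreated ΔC cells, against 3.66, 3.60 and 3.00 in WT cells. Every ΔC array lay below every WT array in both conditions. Sil1 fell by 1.09 ± 0.22 (SE) on the log2 scale after poly(I:C) (adjusted p = 0.00635) and by 0.95 ± 0.22 untreated (adjusted p = 0.0120). Both calls were kept without any single array, and the untreated call was lost with scaling to the median (-0.88, adjusted p = 0.0659). In the paired arrays the differences were -1.44, -1.35 and -0.49 after poly(I:C) and -1.17, -1.19 and -0.50 untreated, so that the third experiment again gave the smallest.

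Dnajb9, whose levels stand above, was lower on every ΔC array than on any WT array after poly(I:C), by 1.06 ± 0.22 (SE) on average (adjusted p = 0.00834), and this call was kept without any single array. Untreated, its log2 difference was -0.71 ± 0.22 with no overlap (adjusted p = 0.0475), and this call was lost with scaling to the median (-0.64, adjusted p = 0.149). The replicate block put the untreated value at an adjusted p of 0.0626, so that this call was lost, and it was kept only without ΔC untreated array 3 or WT treated array 3 among 12 omissions. The further Dnajb9 probe was lower in ΔC cells as well, by 0.82 on the log2 scale after poly(I:C) and by 1.10 untreated, and both were called among the probes tested.

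Derl3, a derlin of the retrotranslocation machinery, had levels of -2.30, -2.86 and -3.74 in ΔC cells after poly(I:C), against -7.56, -5.62 and -5.56 in WT cells. In untreated cells it had -2.06, -1.82 and -4.29, against -5.99, -6.74 and -5.20. All ΔC arrays lay above all WT arrays, but only 1 of 3 WT arrays in each condition was well above background, so the size of the difference rests partly on background readings. As fitted it was 3.28 ± 0.75 (SE) after poly(I:C) (adjusted p = 0.0127) and 3.26 ± 0.75 untreated (adjusted p = 0.0132). With normexp background correction the values were 1.03 (adjusted p = 0.0503) and 1.32 (adjusted p = 0.0190). Because Derl3 entered the test through the groups in which it was brighter, these values describe the gene and support no count. The call after poly(I:C) was lost without array 1 of either genotype (adjusted p = 0.0509 for ΔC and 0.0524 for WT), and the untreated call was lost without ΔC array 1 or 2 (0.0572 and 0.0579).

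The 5 members called in untreated cells alone were small differences, and each lost its call with scaling to the median, quantile normalization and normexp. Pdia6 (P5), a disulfide isomerase, had 6.40, 6.37 and 6.26 in untreated ΔC cells, against 6.94, 7.01 and 6.61 in untreated WT cells, a difference of -0.51 ± 0.13 (SE, adjusted p = 0.0239). Its further probe was called too, at -0.60 untreated and -0.51 after poly(I:C). Dnajb11, a J-domain protein that hands clients to BiP, had 4.03, 4.01 and 4.32 in ΔC cells, against 4.53, 4.53 and 4.64 in WT cells (-0.45, adjusted p = 0.0386). Calr had 5.72, 5.72 and 5.76 in ΔC cells, against 5.97, 6.02 and 6.28 in WT cells (-0.35, adjusted p = 0.0372). None of the 3 genes overlapped between the genotypes.

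Derl2 had 4.42, 4.43 and 4.46 in untreated ΔC cells, against 4.88, 4.87 and 4.67 in WT cells (-0.37, adjusted p = 0.0383), and its 2 further probes, at -0.34 and -0.27, were not called. Sec61b had 6.49, 6.47 and 6.57 in ΔC cells, against 6.89, 6.77 and 6.86 in WT cells (-0.33, adjusted p = 0.0386), and its further probe, at -0.13, was not called. Again the groups did not overlap for the probes that stand for these genes. Under quantile normalization the untreated differences were -0.27 for Pdia6 (adjusted p = 0.238), -0.32 for Dnajb11 (0.129), -0.14 for Calr (0.363), -0.23 for Derl2 (0.168) and -0.07 for Sec61b (0.644). After poly(I:C) the 5 genes had differences of -0.36 for Pdia6, -0.17 for Dnajb11, -0.03 for Calr, -0.17 for Derl2 and -0.14 for Sec61b, and 0 of them passed. Their levels after poly(I:C) were 6.14, 5.89 and 6.20 for Pdia6 in ΔC cells, against 6.53, 6.43 and 6.35 in WT cells. Dnajb11 had 3.90, 4.00 and 4.27, against 4.22, 4.11 and 4.34. Calr had 5.79, 5.67 and 5.73, against 5.76, 5.75 and 5.76. The genotypes overlapped for both Dnajb11 and Calr and not for Pdia6. Derl2 had 4.22, 4.30 and 4.47, against 4.52, 4.57 and 4.41, and Sec61b had 6.27, 6.35 and 6.45, against 6.57, 6.40 and 6.53, with overlap for both genes.

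That 5 genes passed in untreated cells and not after poly(I:C) does not show that the genotypes differed less there, since their differences between the responses, 0.15 to 0.32, did not pass (adjusted p from 0.926 to 0.987). The count of 8 in untreated cells also moved with single arrays: it was 1 without untreated ΔC array 1 or 2, 2 without untreated WT array 2, 3 without treated WT array 1 or 2 or treated ΔC array 2, and 4 without untreated WT array 1. Derl3 was in each of these counts except those without untreated ΔC array 1 or 2. Over all genes the 3263 calls became 1793 or 1811, 2435, 2811 to 3007 and 2092 in the same order. Without the 4 arrays numbered 3 it was 14 (1 rose and 13 fell), among them 7 of the 8, against 36.4% of all genes called, and after poly(I:C) 8 (4 rose and 4 fell) against 37.7%. Derl3 was the 1 that rose untreated and 1 of the 4 that rose after poly(I:C). Within a slide (1 array against 1) and a scan day (1 against 2, or 2 against 1), Sil1 was at -1.44 and -1.42 after poly(I:C). Untreated, it was at -1.19 and -1.15. Dnajb9 was at -1.18 and -1.24 after poly(I:C) and at -0.94 and -0.95 untreated. No called member had overlapping groups, so every such difference had to keep its sign and gives no check on batch. With slide as a block 0 members were called in either condition, and with scan day as a block 0 untreated and 1 after poly(I:C).

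Other members did not pass the test between the genotypes. Hspa5 was at -0.21 after poly(I:C) (adjusted p = 0.230) and -0.11 untreated (0.531), and Herpud1 at -0.11 (0.779) and -0.54 (0.129). Edem1 and Pdia4 had positive values, 0.50 and 0.44 after poly(I:C) and 0.32 and 0.34 untreated, with adjusted p from 0.0763 to 0.247. Blocking on the replicate number added 3 calls: Pdia4 after poly(I:C) (adjusted p = 0.0320), and untreated Hspa13 (-0.38, adjusted p = 0.0377) and Pdia3 (-0.47, adjusted p = 0.0417). Sdf2l1 was at 0.37 (0.0741) and 0.04 (0.838), Manf at 0.24 and 0.04, Hsp90b1 at -0.03 and -0.29, Creld2 at -0.19 and -0.41 and Sel1l at -0.29 and -0.44. The sensors Ern1 (-0.04 and -0.02), Atf6 (0.34 and 0.07) and Xbp1 (-0.29 and -0.14) did not pass either. The remaining members, none called, lay between -0.30 for Canx and 0.25 for Dnajc3 after poly(I:C) and between -0.47 for Pdia3 and 0.28 for Dnajc3 untreated.

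Markers of cell type also differed between the genotypes. Of 10 fibroblast markers tested, Col3a1 (-3.56) and Vim (-0.54) were lower in ΔC cells after poly(I:C), against 9.04% of all genes, and Col3a1 (-3.64), Pdgfrb (-1.89) and Vim (-0.63) untreated, against 10.2%. None of the 10 was called higher, and 3 had positive values after poly(I:C) and 2 untreated. The highest was Thy1, at 2.22 after poly(I:C) (adjusted p = 0.284, with 1 of 3 treated WT arrays well above background) and 1.37 untreated (adjusted p = 0.506). The summed linear level of the 10 was 323 to 655 in treated and 309 to 662 in untreated ΔC cells, against 635 to 766 in treated and 696 to 806 in untreated WT cells. Of 5 epithelial markers Epcam was at least 8.73-fold higher in ΔC cells after poly(I:C) and at least 7.99-fold untreated, with no WT array well above background, and Cdh1 at least 2.06-fold and 1.63-fold. They were the 2 of 5 called higher in each condition, against 11.9% of all genes after poly(I:C) and 10.9% untreated. No WT array was well above background for Cdh1 either. Both genes thus entered the test only through the ΔC groups, in which they were brighter, and their calls support no count. Krt8 fell by 1.91 on the log2 scale in untreated ΔC cells, where 1 of 3 arrays was well above background, and the summed level of the 5 overlapped between the genotypes (1.41 to 3.15 in treated and 1.62 to 3.66 in untreated ΔC cells, against 0.572 to 3.87 and 0.497 to 4.72 in WT cells). The part of these differences in the genotype results was not tested, and in such bulk RNA fewer cells of a type and less RNA per cell cannot be told apart.

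Other branches of the pathway were read from lists of further genes. The PERK arm, which runs through eIF2α to ATF4 and CHOP, was the list in which poly(I:C) raised most genes. PERK is only the name of the list here, and whether PERK, PKR or another route raised these genes was not tested. Of its 14 genes 2 rose in ΔC cells, the stress factor Atf3 (4.29, adjusted p = 0.000692) and the glutathione-degrading enzyme Chac1 (2.20, 0.0296). In WT cells 5 rose, among them Atf3 (5.61, 6.80e-05) and Chac1 (1.88, 0.0296), with Ddit3, the gene for CHOP, at 1.18 (0.0166). Ppp1r15a was not among the 5, although its WT levels were 5.79, 5.83 and 5.81 after poly(I:C) and 2.65, 2.62 and 3.36 untreated. Its spread was estimated together with the ΔC arrays, which lay between -8.30 and -4.12. Among all genes 1.82% rose in ΔC cells and 5.24% in WT cells. Leaving out Ppp1r15a, the gene altered in ΔC cells, the other 13 had positive values in both genotypes, with medians of 0.56 and 0.67. Ddit3 did not pass in ΔC cells (1.08, 0.0533), and Atf4, whose protein rises mainly through translation, did not pass in either genotype (0.45 and 0.35).

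The 7 other lists held few calls after poly(I:C). None of their 152 tested genes passed in ΔC cells, against 1.84% of all genes there and 6.77% in WT cells. In WT cells Creb3l4, an ER-bound transcription factor of the ATF6 type, rose (1.75, adjusted p = 0.000701), and the retrieval receptor Kdelr3 (-0.73, 0.0231) and the cargo receptor Surf4 (-0.57, 0.0455) fell. The list medians lay between -0.18 and 0.05 in ΔC cells and between -0.31 and -0.04 in WT cells. Cytosolic and mitochondrial heat shock proteins, with medians of 0.05 and -0.04, had 0 of 15 called in either genotype.

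**Figure D5:**
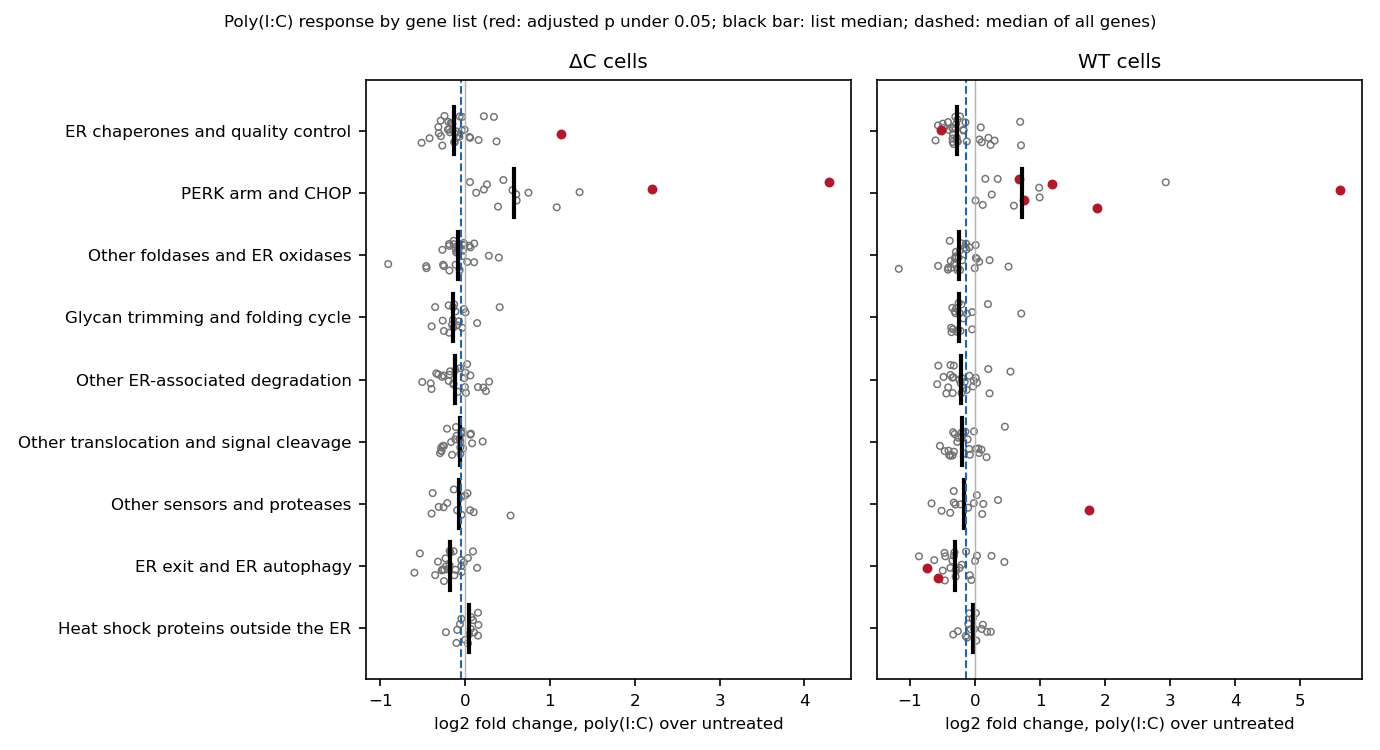
Log2 change after poly(I:C) for each gene (points) of the 33 members and 8 further lists in ΔC cells (left) and WT cells (right), red where the test was passed, with list medians as black bars and the median of all genes dashed. The PERK arm lies to the right in both panels (medians 0.58 and 0.71 with Ppp1r15a included), and the other lists lie near the dashed line.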

How the data were processed

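RNA of 12 MEF samples was measured on Agilent single-colour arrays. Per the labels' protocols, an NP40 lysate was spun, RNA of its supernatant was extracted with phenol and chloroform, and labelling with Cy3 followed amplification. The deposited scanner files give intensity per spot, background-subtracted and with no normalization between arrays per the file headers, and the authors' deposited table holds log2 values whose columns share a median of 5.28. limma was used per the submitters' processing notes, with no version given. The column of that table for ΔC poly(I:C) array 1 did not match its scanner file (r = -0.0614 between deviations from the probe means, against 0.936 to 0.984 for the other 11), so an alternative left it out. No table column was left unmapped to a sample.

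From the scanner files, the log2 processed intensity was averaged over the spots of a probe, and the array's 75th percentile over 55681 probes was subtracted. Control and outlier spots were left out, and 0 spots were saturated. RefSeq accessions named 27229 probes. Genes entered the test if, in at least 1 group, a probe exceeded background well on each of the 3 arrays, and the probe with the highest mean stood for the gene, which gave 15441 genes. limma 3.58.1 in R 4.3.3 fitted 1 mean per group over 12 arrays (8 residual degrees of freedom), two-sided, with Benjamini-Hochberg adjustment over all genes and a threshold of 0.05, and was tested on simulated data. The number of arrays limits the precision.

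A bound ("at least N-fold") sets the mean of the brighter group against a floor for the dimmer group, which is the weakest signal on an array among probes that clear its background. The normexp alternative (offset 50) used the median spot intensity, since the files used here hold no mean intensity. Replicate numbers mark the independent experiments: deviations from group means correlated at 0.115 to 0.651 between same-numbered arrays of compared groups, so they were taken to pair the samples. The main fit did not use this pairing, and the replicate block was run as an alternative. Slides (5) and scan days (3) were read from the file headers, and slide or scan day was tried as a block. Promoters came from RefSeq (GRCm38.p6), the members without one being Hspa13, Manf, Hyou1, Derl1, Sec61a1, Atf6, Erlec1 and Sil1.

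The members, the 8 further gene lists, the marker lists and the tests were chosen with earlier results of these data known. Values per array were given for called members and for 14 members of main interest. From each further list the 2 largest rises and falls among called genes of a comparison, or without any call the 2 largest changes, were named, with Ppp1r15a, Ddit3 and Atf4 always.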

Additional observations from a re-analysis of the deposited data

How the results depend on the processing

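The direction of the 13 called member values reversed in 0 of 349 alternative values, while the call was kept in 191 and lost in 158. Many alternatives left the estimate unchanged, and omitting 1 array cannot reverse groups that do not overlap. The count of 0 was thus largely fixed in advance. The 1 call of the WT response became 0 with scaling to the median, quantile normalization, no filter on dim probes, a fit of only the groups compared, a slide or scan-day block, or the authors' deposited table with or without its mismatched column. It became 4 with a trended robust prior, 24 with array weights and 16 without the arrays numbered 3 (the last an alternative chosen after seeing the data, as was the table without its column). The 1 call of the ΔC response became 0 with scaling to the median, no filter, only the groups compared, slide, scan day, either version of the authors' table, and the replicate block, and it became 7 with array weights and 5 without the arrays numbered 3. Over all genes the 284 calls became 84 with slide, 145 with scan day, 2669 with array weights and 2026 without the arrays numbered 3. The 8 calls between untreated genotypes became 1 with scaling to the median, 3 with quantile normalization, with normexp or with no filter, 2 with only the groups compared, 0 with a slide or scan-day block, 1 with the authors' table and 2 without its column, and they became 17 with array weights and 14 without the arrays numbered 3. Over all genes the 3263 calls became 923 with slide, 1626 with scan day, 7403 with array weights and 5621 without the arrays numbered 3. The 3 calls after poly(I:C) became 0 with slide as a block, 1 with scan day, 0 with the authors' table, 5 with normexp, 5 with the trended robust prior, 14 with array weights and 8 without the arrays numbered 3. Over all genes the 3233 calls became 938 with slide, 1738 with scan day, 6927 with array weights and 5820 without the arrays numbered 3. The replicate block gave 1, 0, 9 and 4 calls for the WT response, the ΔC response, and the genotypes untreated and after poly(I:C), and it changed no other member's call than those of Herpud1, Dnajb9, Pdia4, Hspa13 and Pdia3 given in the report. Leaving out each array in turn gave 0 to 6, 0 to 1, 1 to 9 and 2 to 4 calls in the same order. Over all genes these omissions gave 374 to 2232, 154 to 356, 1793 to 3816 and 1746 to 3542 calls. For the difference between the responses 0 members were called in each alternative run; no slide or scan day held all 4 groups, so it has no within-batch value, and its fit of only the groups compared is that over all arrays. The stricter filter left Derl3 untested, and the other counts between the genotypes were made with it among the 33. The causes of these changes were not tested. Signal over background limits Derl3, which alone among the members was not well above background on all arrays.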

Other observations

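Genes around the 33 members also differed between the genotypes, in both directions within most lists. Over all genes 11.9% rose and 9.04% fell after poly(I:C), and 10.9% rose and 10.2% fell untreated. Of 30 other foldases 2 rose and 3 fell after poly(I:C), and 2 rose and 6 fell untreated. Of 19 glycan-cycle genes 1 rose and 1 fell after poly(I:C), and 2 rose and 1 fell untreated. Of 25 degradation genes 2 rose and 1 fell after poly(I:C), and 2 rose and 2 fell untreated. Among other foldases, 2 prolyl isomerases were higher in ΔC cells, Fkbp7 by 2.14 and 1.94 and Fkbp14 by 1.67 and 1.40 on the log2 scale after poly(I:C) and untreated, while the thioredoxin-like Tmx3 was lower in both (-0.76 and -0.78), as were Dnajb12 after poly(I:C) (-0.46) and the peroxiredoxin Prdx4 untreated (-0.66). In the glycan cycle Clgn, a calnexin homologue of the testis, was higher (1.98 and 1.96) and Magt1, a subunit of the oligosaccharyltransferase, lower (-0.45 and -0.55), and Uggt1, the sensor of glycoprotein folding, was higher untreated (0.35). In degradation Svip, an inhibitor of that pathway, had fitted differences of 2.66 and 2.79, which rest partly on background readings, since 1 and 2 of 3 WT arrays were well above background and it entered the test through the ΔC groups, with Faf2 at 0.30 after poly(I:C) and Erlin1 at 0.45 untreated, while Rnf139 fell by 0.84 after poly(I:C), and Rnf185 by 0.45 and Selenok by 0.42 untreated.

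Of 25 genes of protein entry tested, 3 fell and 1 rose after poly(I:C), and 5 fell and 0 rose untreated, against 9.04 and 11.9% and against 10.2 and 10.9% of all genes. They included the translocon-associated Ssr4 (-0.76 and -0.80), the signal recognition particle genes Srp19 after poly(I:C) (-0.75) and Srp54a untreated (-0.75), and Get4, which was higher after poly(I:C) (0.34). Of 14 sensors and proteases 2 rose and 1 fell after poly(I:C), and 1 rose and 0 fell untreated. Of 24 genes of ER exit and ER autophagy it was 2 and 0, and 1 and 4. Of 15 heat shock proteins outside the ER it was 2 and 1, and 1 and 1. Among sensors Creb3l4 was higher (0.67 and 1.88), with Creb3l2 higher (0.64) and Tmbim6 lower (-0.43) after poly(I:C). In ER exit and ER autophagy Mia3 was higher (0.64 and 0.62), Kdelr3 was higher after poly(I:C) (0.77), and Retreg1 (-0.59) and Lman1 (-0.58) were lower untreated. Of heat shock proteins outside the ER, Hspb1 was higher (2.87 and 2.69), Hsph1 was higher after poly(I:C) (0.35), and the mitochondrial Hspa9 was lower (-0.82 and -0.87).

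In the PERK arm, leaving out Ppp1r15a, the gene the mutation targets, 4 of 13 genes (30.8%) were lower in ΔC cells in each condition, against 9.04% of all genes after poly(I:C) and 10.2% untreated, and 0 were higher. Cebpb was lower by 1.34 on the log2 scale after poly(I:C), and Cebpb by 1.33 untreated. Ddit3 was lower by 1.18 and 1.08. Ddit3 had levels of 1.41, 1.40 and 1.65 in ΔC cells after poly(I:C), against 2.82, 2.85 and 2.32 in WT cells, with no overlap.

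In the lists with no call after poly(I:C), the largest changes in ΔC and in WT cells were those of Fkbp14 (-0.91 and -1.17), with Ero1b (-0.46) in ΔC cells and Tmx4 (-0.57) in WT cells. They were Uggt2 (0.41 and 0.71), with Edem2 (-0.39) and Dad1 (-0.37). In degradation they were Ngly1 (-0.40 and -0.57), with Svip (-0.50) and Rnf5 (-0.58). For protein entry they were Get1 (-0.29 and -0.47), with Srp9 (-0.28) and Tram1 (-0.54). For sensors and ER exit in ΔC cells they were Creb3l4 (0.54), Wfs1 (-0.39), Ccpg1 (-0.60) and Calcoco1 (-0.53). Hspb8 (-0.23 and -0.34), Hsp90ab1 (0.16) and Hspb1 (-0.26) led the heat shock proteins. The further PERK-arm genes that rose in WT cells were Cebpb (0.76) and Ppp1r15b (0.67).

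Among other marker lists, the blood-cell markers Csf1r (-1.19) and Itgam (-0.84) were lower in untreated ΔC cells and 0 of 6 were called after poly(I:C). Of 2 endothelial markers tested 0 were called in any comparison. The muscle marker Des was higher in ΔC cells after poly(I:C) (adjusted p = 0.00576), with no WT array well above background. It thus entered the test only through the ΔC groups, and its call supports no count. Of 3 pluripotency markers Nanog fell in WT cells after poly(I:C) (-0.61), and 0 were called between the genotypes.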
